A study of Mus musculus with 2 samples.

Results

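A group of 10 genes for secreted glycoproteins of the extracellular matrix was followed through the cell classes of KPPC mouse pancreatic tumours: Fn1, Tnc, Postn, Sparc, Thbs1, Thbs2, Fbn1, Fbn2, Fbln2 and Bgn. They were chosen by symbol among the 32285 genes of the deposited count matrices, and all 10 were found. KPPC mice are a genetically engineered model of pancreatic ductal cancer. The labels do not spell out the alleles or the promoter of the Cre. Both groups were KPPC mice of 6 weeks, treated for 14 days with vehicle or with takinib at 50 mg/kg, and the number of mice behind each library is not stated. Takinib inhibits TAK1, the product of Map3k7, a kinase that acts downstream of TGF-beta and inflammatory receptors. With 1 library per group no test could be run, and every difference below lacks a replicate check. Square brackets hold 95% intervals, which reflect the counting of molecules and not variation among mice. The question was which cells of the tumour carried these transcripts, tumour epithelium or fibroblasts, and how their levels differed between the libraries.

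The matrix around a pancreatic ductal tumour is mostly laid down by fibroblasts, but cancer cells, macrophages and endothelial cells also secrete some of its glycoproteins. Fibronectin, the product of Fn1, is assembled into fibrils by integrins and links cells to collagen. Tenascin-C (Tnc), periostin (Postn), SPARC and the thrombospondins (Thbs1, Thbs2) are matricellular proteins, which modulate how cells bind the matrix more than they bear load. Fibrillins (Fbn1, Fbn2) form the microfibrils that hold latent TGF-beta and scaffold elastic fibres, fibulin-2 (Fbln2) binds both fibrillin and fibronectin, and biglycan (Bgn) is a small leucine-rich proteoglycan that binds collagen.

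The libraries differed in more than treatment. Vehicle gave 9558 kept cells and takinib 25183, with a median of 3556 and 2887 UMIs (unique molecular identifiers, which tag captured transcripts) per cell. The vehicle library held cells with Y-linked and cells with Xist transcripts, whereas no Y-linked UMI was counted in takinib. Neutrophil-like cells made up 2.95% of kept cells in vehicle and 49.8% in takinib. The neutrophil genes S100a8 and S100a9 together were at 64.8 CPM (a gene's summed UMIs scaled to a common total of UMIs per class) in vehicle fibroblast-like cells and 8751 CPM in takinib ones. Of the kept barcodes, 359 occurred in both libraries, 3.76% of the vehicle and 1.43% of the takinib cells. The vehicle library lists 704261 barcodes in all, which include 96.0% of the kept takinib ones. How many shared barcodes to expect from such a list was not tested. Treatment, sex, depth, barcode filtering and free RNA cannot be told apart with this design.

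Cell classes came from clusters computed without the 10 genes. The fibroblast-like class held 572 vehicle and 233 takinib cells, with a median of 3110 and 8102 UMIs, and all 10 fibroblast markers were detected in at least 10% of the cells of each library. The epithelial-like class held 1148 and 1009 cells, and all 11 epithelial markers were detected in both. Most of them, 817 and 759 cells, were a cluster led by Cdkn2a, Krt7 and Hmga2. A further cluster of 578 and 768 cells led by Tff2, Dmbt1 and Reg1 had the acinar gene Ctrb1 among its leading genes and was left unnamed. A sum over a class does not tell fewer producing cells from less RNA per cell, so shares of cells are given for the main genes as well.

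**Figure D1:**
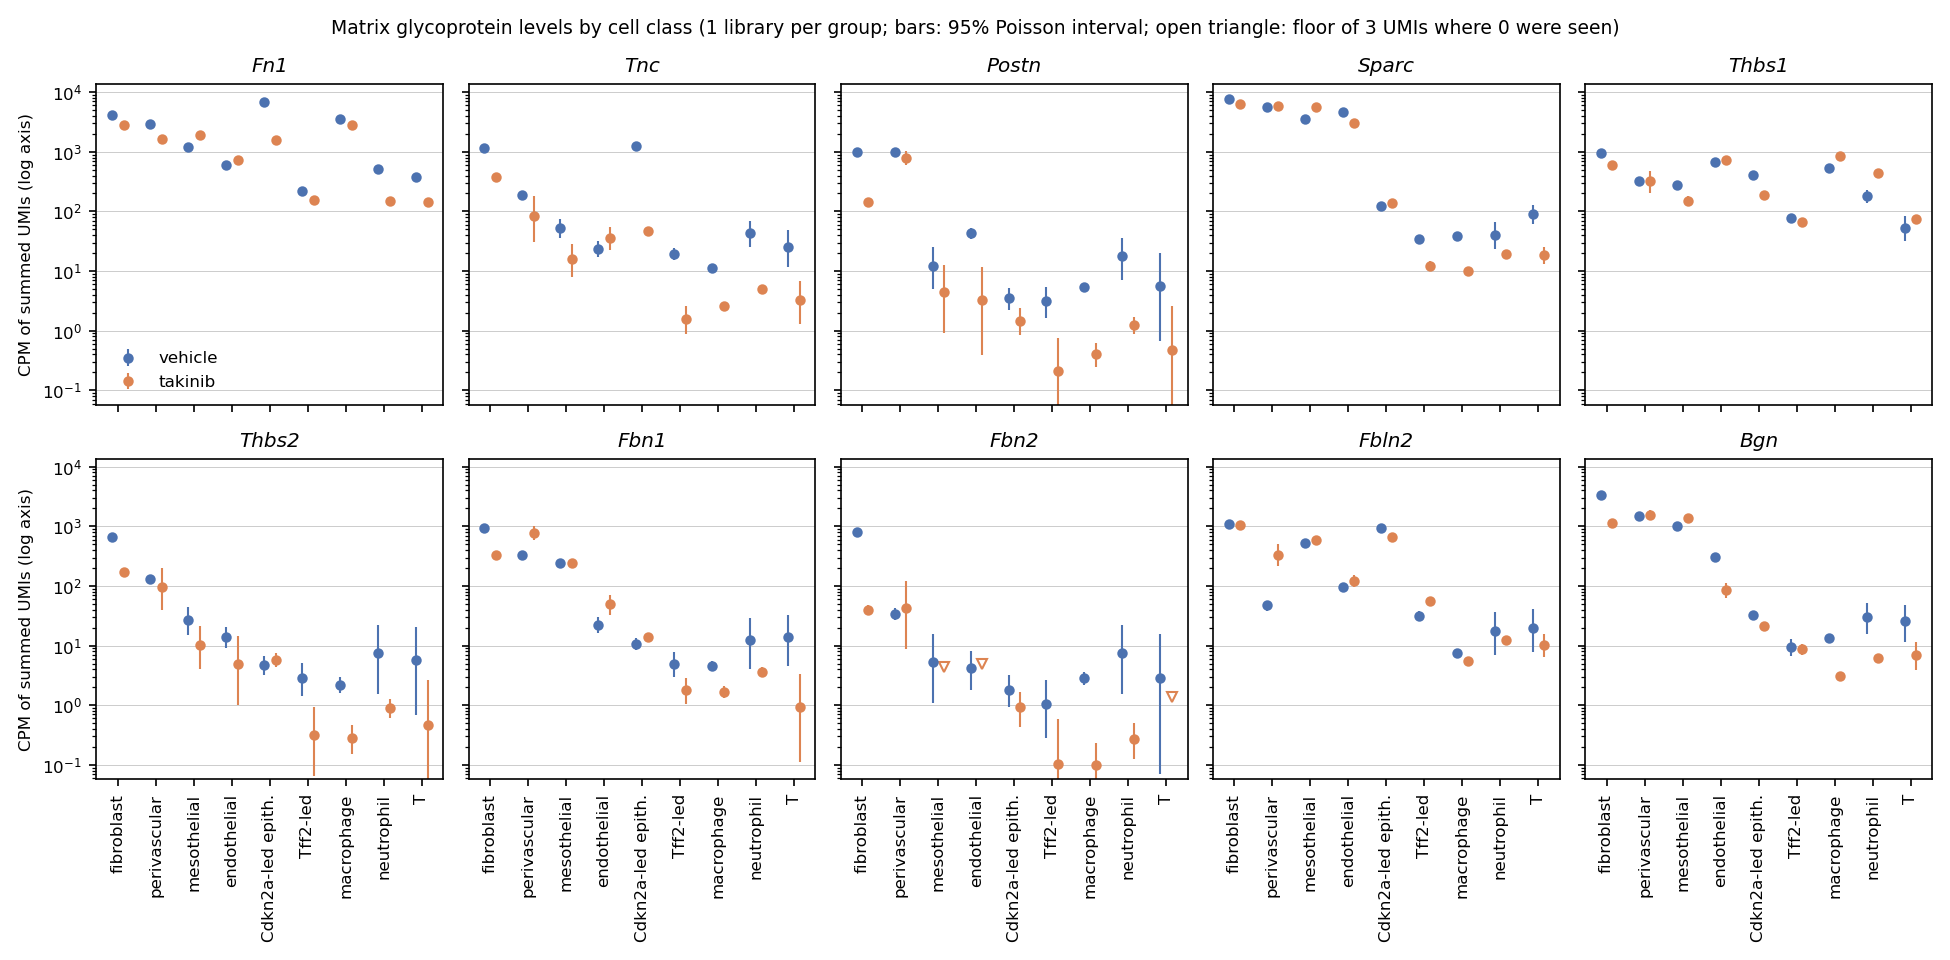
CPM of summed UMIs (log axis) of the 10 genes in 9 cell groups, with 1 blue point for vehicle and 1 orange point for takinib; bars are 95% Poisson intervals and open triangles mark the floor of 3 UMIs where none was counted. Tnc in the Cdkn2a-led epithelial cluster stood at 1255 CPM in vehicle and 46.1 CPM in takinib, while Sparc in fibroblast-like cells stood at 7663 and 6298 CPM.

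Fibroblast-like cells were first set against epithelial-like cells. A higher level in either class does not make it the main source of a gene, since other classes also held UMIs. In vehicle, 7 of the 10 were at least 2-fold higher in fibroblast-like than in epithelial-like cells, where 8.89% of the 10719 genes with at least 50 UMIs in either class were so. Biglycan had 3373 CPM in fibroblast-like and 29.4 CPM in epithelial-like cells, and periostin 998 and 3.87 CPM. Sparc had 7663 and 113 CPM, Thbs2 655 and 4.51 CPM, Fbn1 938 and 10.8 CPM, and Fbn2 800 and 1.55 CPM. Thbs1 was the closest of the 7, with 965 and 396 CPM, a 2.44-fold difference. The other 3 genes did not reach 2-fold in either direction: fibronectin was higher in epithelial-like cells (6115 against 4073 CPM), tenascin-C was level (1147 against 1144 CPM) and Fbln2 was slightly lower there (813 against 1103 CPM). In takinib, 8 of the 10 passed 2-fold, where 6.7% of 11328 genes did. Tnc had joined them at 374 CPM in fibroblast-like and 47.6 CPM in epithelial-like cells, and Fn1 now stood higher in fibroblast-like cells, at 2861 against 1533 CPM.

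Counted as shares of all UMIs of a gene, the source of tenascin-C differed most between the libraries. Epithelial-like cells held 72.6% [71.9, 73.4] of the 12252 Tnc UMIs in vehicle and 27.9% [25.9, 29.9] of the 1964 in takinib. Fibroblast-like cells held 20.2% [19.4, 20.9] and 53.1% [50.8, 55.3]. Fbln2 had 65.7% and 60.2% of its UMIs in epithelial-like cells. These epithelial shares include sub-clusters of the Cdkn2a-led cluster that took the names of fibroblasts or macrophages by their markers. Without them, the epithelial share of Tnc was 71.8% [71.0, 72.6] in vehicle and 8.81% [7.59, 10.1] in takinib, and that of Fbln2 63.2% and 45.3%. Macrophage-like cells held the largest part of Fn1, 54.2% in vehicle and 79.5% in takinib, and of Thbs1, 60.2% and 65.9%. Such shares rest on how many cells of each class were captured: perivascular-like cells, which held 48.3% of the Postn UMIs in vehicle and 10.2% in takinib, numbered 590 and 13. Thbs2 and Fbn2 were carried by fibroblast-like cells in both libraries, with 76.3% and 76.5% for Thbs2 and 91.0% and 78.3% for Fbn2.

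**Figure D2:**
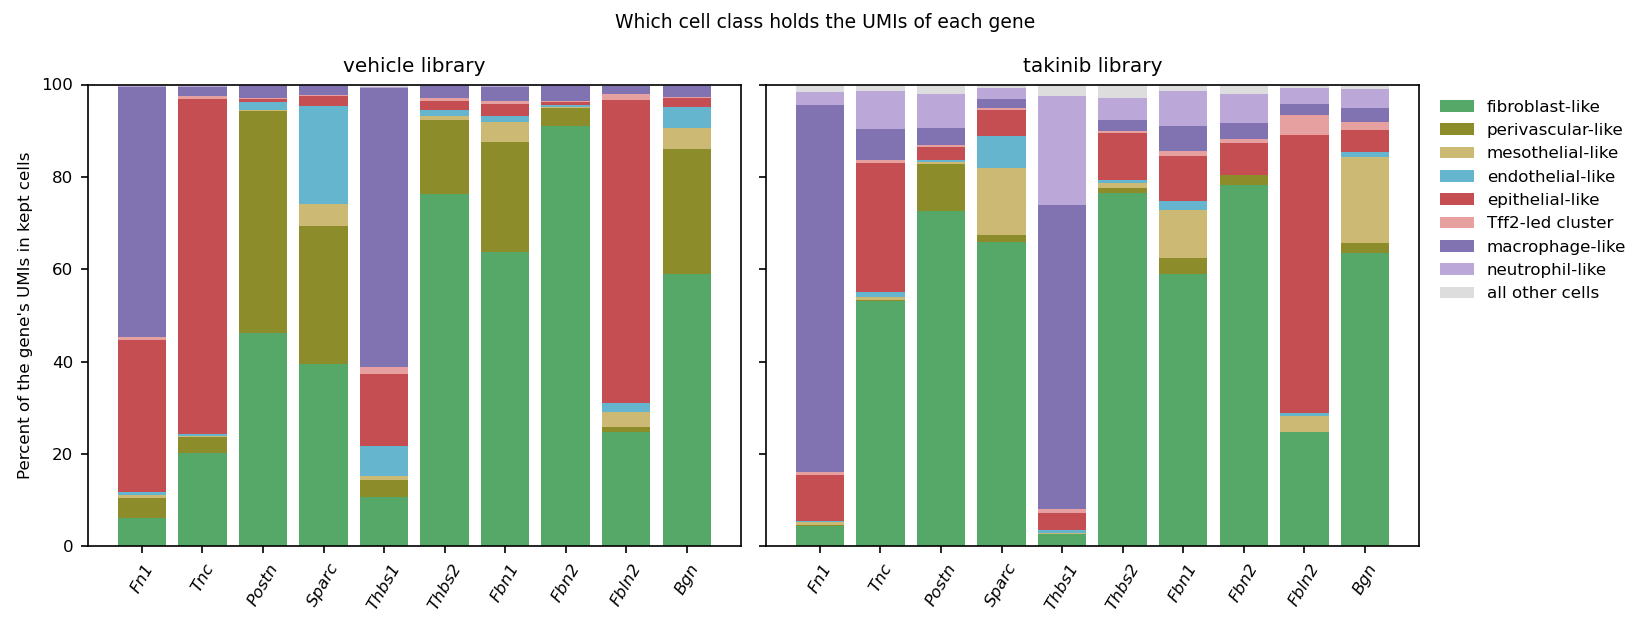
Percent of each gene's UMIs (vertical axis, 0 to 100) held by each cell class in the vehicle library (left) and the takinib library (right). The epithelial-like part of Tnc is 72.6% in vehicle and 27.9% in takinib, and macrophage-like cells hold 54.2% and 79.5% of Fn1.

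Tenascin-C (ENSMUSG00000028364; chromosome 4, 63959785 to 64047015, minus strand, GRCm38, GENCODE M21), a large hexameric protein that is sparse in most adult tissue and abundant in tumour stroma, showed the widest gap in the epithelium. In the Cdkn2a-led cluster it had 8238 UMIs in vehicle, 1255 CPM [1228, 1282], and 503 in takinib, 46.1 CPM [42.2, 50.3]. The takinib level was 27.2-fold lower (log2 ratio of CPM plus 10, -4.49 [-4.60, -4.39]), and the intervals lay far apart. With every cell thinned to 1000 UMIs, 29.7% of the vehicle cells and 2.77% of the takinib cells had a Tnc UMI; unthinned shares were 46.8% and 7.91%, at a median of 6287 and 11615 UMIs. In T-like cells, which should lack the gene, the thinned shares were 1.83% and 0.58% at a median of 1367 and 1677 UMIs.

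Within the Cdkn2a-led cluster most of the tenascin-C transcripts came from 1 sub-cluster in each library. Clustered again, the cluster split by library, and no sub-cluster held 20 cells of both. In vehicle, 7241 of the 8238 Tnc UMIs came from 278 cells led by Csf2, Nt5e and Ccbe1, where the level was 3174 CPM [3102, 3248]. The sub-cluster led by Prl2c2 and Inhba had 335 CPM and that led by Spink4 and Pyy 130 CPM. In takinib, 375 of the 503 UMIs came from 49 cells led by Crabp2 and Mgp, at 545 CPM [491, 603]. Those 49 cells took the name of fibroblasts by their markers and held Cdkn2a at 1934 CPM but Epcam at only 13.1 CPM. The main takinib sub-clusters had 16.0 CPM (led by S100a9 and S100a8, 348 cells) and 1.49 CPM (led by Ly6d and Tff1, 326 cells). The S100a9-led cells scored highest for neutrophil markers (0.838, epithelial 0.700), held Epcam at 1832 CPM and were left unnamed. The Ly6d-led cells scored highest for epithelial markers (0.862) but were left unnamed, as their leading genes included some of another class. Neutrophil markers over the whole cluster summed to 77.5 CPM for vehicle cells, against 11172 CPM for takinib cells. How this bears on the Tnc levels was not tested. The comparison of the cluster is therefore one of different sub-clusters in the 2 libraries. With the sub-clusters that took the names of fibroblasts and macrophages left out, the log2 ratio of Tnc in epithelial-like cells was -5.53, against -4.33 with them.

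Fibronectin (Fn1, ENSMUSG00000026193; chromosome 1, 71585520 to 71653200, minus strand) ranked the sub-clusters of each library in the same order as tenascin-C. In the Cdkn2a-led cluster its level was 6778 CPM [6715, 6842] for vehicle and 1553 CPM [1529, 1576] for takinib, 4.37-fold lower. The Csf2-led vehicle cells reached 12985 CPM, the Prl2c2-led 4483 CPM and the Spink4-led 2634 CPM. The takinib cells had 1290 CPM in the S100a9-led and 852 CPM in the Ly6d-led sub-cluster, but 6632 CPM in the 49 Crabp2-led cells. Fn1 was detected in 84.0% of the vehicle cells of the cluster and 50.9% of the takinib cells at 1000 UMIs, against 29.8% and 14.2% in T-like cells.

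Thbs1 (ENSMUSG00000040152; chromosome 2, 118111876 to 118127133, plus strand), an activator of latent TGF-beta and inhibitor of angiogenesis, was the next gene of the cluster to pass 2-fold. Its level was 404 CPM [388, 419] for vehicle and 192 CPM [184, 200] for takinib. Over all epithelial-like cells its log2 ratio was -0.97, just short of the call. Thus 3 of the 10 genes were at least 2-fold lower in takinib in the Cdkn2a-led cluster and none was higher, where 2.19% of 11072 genes were lower and 3.19% higher. In epithelial-like cells as a whole 2 were lower and none higher, where 2.41% of 11413 genes were lower and 2.98% higher. The count of lower genes there was larger under some alternatives, given at the end. Fbln2 in the Cdkn2a-led cluster was at 923 CPM for vehicle and 655 CPM for takinib. Bgn had 32.9 and 21.4 CPM, Sparc 124 and 138 CPM, and Fbn1 10.8 and 13.9 CPM. Postn and Fbn2 had under 50 UMIs in both libraries of that cluster and could not be called.

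The Tff2-led cluster carried little of this matrix, although 11 epithelial markers summed to 8462 CPM in its vehicle cells, beside 8645 CPM in epithelial-like cells. In vehicle it had 222 CPM of Fn1, 19.5 CPM of Tnc and 31.3 CPM of Fbln2, so that the Cdkn2a-led cluster was 30.6-, 64.5- and 29.5-fold higher. At least 2-fold higher in the Cdkn2a-led cluster were 6 of the 10 genes, where 7.49% of 9890 genes were so. These low levels were below those in vehicle T-like cells for Fn1 (376 CPM) and Tnc (25.4 CPM).

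Collagen transcripts were used to follow fibroblast RNA in the epithelial sums. Summed Col1a1, Col1a2 and Col3a1 stood at 88.7 CPM in the vehicle and 124 CPM in the takinib Cdkn2a-led cluster, against 33911 and 16128 CPM in fibroblast-like cells. In the 554 vehicle and 611 takinib cells of the cluster without a UMI of these genes or Dcn, Tnc had 1186 and 10.6 CPM, and Fn1 had 6385 and 1200 CPM. Tnc stood at 1255 and 46.1 CPM over the whole cluster, so its difference between libraries was wider in the cells kept. The 49 Crabp2-led takinib cells, which held most takinib Tnc UMIs here, had Col1a2 among their leading genes and Cdkn2a at 1934 CPM. Leaving out cells with collagen UMIs may thus remove more than fibroblast RNA. Sparc had 77.1 and 28.1 CPM in the cells without collagen or Dcn UMIs, against 124 and 138 CPM over the cluster, so its direction turned.

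In fibroblast-like cells, 6 of the 10 genes were at least 2-fold lower in takinib and none was higher, where 8.63% of 7140 genes were lower and 6.92% higher. The 6 were Fbn2, Postn, Thbs2, Tnc, Bgn and Fbn1, and the other 4, Thbs1, Fn1, Sparc and Fbln2, had log2 ratios from -0.65 to -0.07. All 10 genes had over 50 UMIs there. Their median log2 ratio was -1.51, beside -0.07 over all genes compared.

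**Figure D3:**
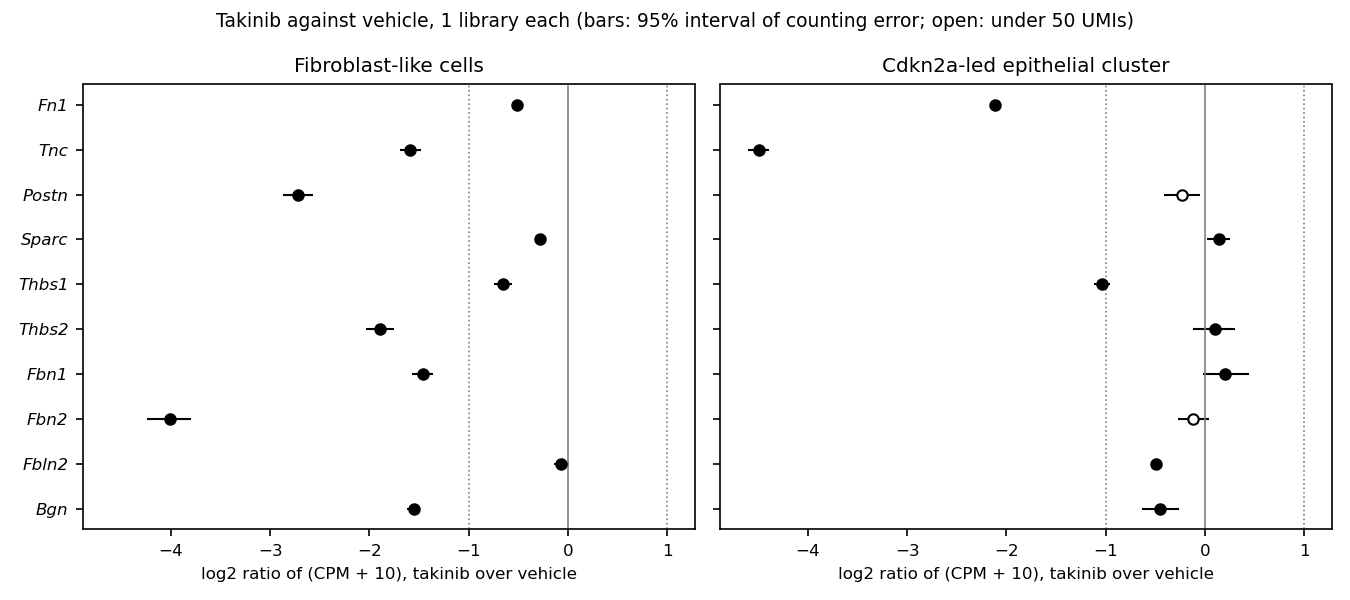
Log2 ratio of CPM plus 10, takinib over vehicle, in fibroblast-like cells (left) and in the Cdkn2a-led epithelial cluster (right); bars are 95% intervals of counting error, dotted lines mark 2-fold, and open points had under 50 UMIs. In fibroblast-like cells Fbn2 lies at -4.01 and Fbln2 at -0.07, whereas Tnc lies lowest in the Cdkn2a-led cluster at -4.49.

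Periostin (Postn, ENSMUSG00000027750; chromosome 3, 54361109 to 54391037, plus strand) crosslinks collagen through its binding partners and is a product of activated stroma. It had 2154 UMIs in vehicle fibroblast-like cells, 998 CPM [956, 1041], and 398 in takinib, 143 CPM [129, 158], 6.98-fold lower. At 1000 UMIs per cell it was seen in 43.0% and 11.2% of these cells, against 0.46% and 0.10% of T-like cells. Vehicle perivascular-like cells held it at the fibroblast level, 1003 CPM. The 13 takinib perivascular-like cells had 784 CPM [592, 1018] from 56 UMIs.

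The remaining matricellular genes did not move alike. Thbs2 (ENSMUSG00000023885; chromosome 17, 14665500 to 14694235, minus strand), the thrombospondin that cannot activate TGF-beta, stood at 655 CPM in vehicle and 169 CPM for takinib fibroblast-like cells, 3.88-fold lower. Tnc had 1144 CPM [1099, 1190] and 374 CPM [352, 398], 3.06-fold lower. Sparc (ENSMUSG00000018593; chromosome 11, 55394500 to 55423183, minus strand), a calcium-binding collagen chaperone of the matrix, had 7663 and 6298 CPM, a 1.22-fold difference. Thbs1 had 965 and 611 CPM and Fn1 4073 and 2861 CPM. The matricellular genes thus ranged from nearly level to 6.98-fold lower in the same cells.

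The fibrillins parted from fibulin-2. Fbn2 (ENSMUSG00000024598), the fibrillin of developing tissue, had 1727 UMIs in vehicle fibroblast-like cells, 800 CPM [763, 839], and 112 in takinib, 40.2 CPM [33.1, 48.4], 19.9-fold lower. Fbn1 (ENSMUSG00000027204; chromosome 2, 125300594 to 125507993, minus strand), the main fibrillin of adult tissue, had 938 and 334 CPM, 2.81-fold lower. Fbln2 (ENSMUSG00000064080; chromosome 6, 91212455 to 91272540, plus strand) had 1103 CPM [1059, 1148] and 1053 CPM [1016, 1092], and its log2 ratio of -0.07 [-0.14, 0.01] was not distinguishable from 0 within counting error. The proteoglycan Bgn (ENSMUSG00000031375; chromosome X, 73483602 to 73495933, plus strand) had 3373 and 1142 CPM, 2.95-fold lower. At 1000 UMIs, 66.1% of vehicle but 27.5% of takinib fibroblast-like cells had UMIs of at least 5 of the 10 genes.

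The sequence before the start is shown for the 5 genes that were at least 2-fold lower in takinib fibroblast-like cells and had an entry in the RefSeq promoter table (GRCm38.p6). Of the 10 genes, 7 had an entry, these 5 with Sparc and Fbln2, and all 7 were searched. The 250 bases before the start nearest to the GENCODE start are printed 5′ to 3′ on the gene's strand. The windows are chr4:64047016-64047265 for Tnc, chr3:54360857-54361106 for Postn, chr17:14694263-14694512 for Thbs2, chr2:125506439-125506688 for Fbn1 and chrX:73483351-73483600 for Bgn. Capitals mark matches on either strand to the letters of 4 motifs, none of which overlapped another match. The TATA box was searched as TATAAA. The site of AP-1 was searched as TGANTCA. The site of TEAD factors was searched as GGAATG. The site of SMAD factors was searched as CAGAC.
Tnc: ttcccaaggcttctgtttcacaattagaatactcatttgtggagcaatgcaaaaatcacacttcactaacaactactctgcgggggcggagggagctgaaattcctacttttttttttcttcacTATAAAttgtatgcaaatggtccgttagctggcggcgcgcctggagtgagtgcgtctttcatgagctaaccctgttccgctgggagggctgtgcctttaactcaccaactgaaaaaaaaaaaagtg
Postn: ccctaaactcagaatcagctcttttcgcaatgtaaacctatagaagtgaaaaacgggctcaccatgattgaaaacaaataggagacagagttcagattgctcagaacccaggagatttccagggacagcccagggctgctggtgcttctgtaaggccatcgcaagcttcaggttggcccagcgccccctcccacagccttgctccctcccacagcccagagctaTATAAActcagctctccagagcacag
Thbs2: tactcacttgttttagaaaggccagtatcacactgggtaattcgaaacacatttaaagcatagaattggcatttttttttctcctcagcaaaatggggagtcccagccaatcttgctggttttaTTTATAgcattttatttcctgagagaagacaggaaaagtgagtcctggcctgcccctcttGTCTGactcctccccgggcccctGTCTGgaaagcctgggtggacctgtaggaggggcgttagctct
Fbn1: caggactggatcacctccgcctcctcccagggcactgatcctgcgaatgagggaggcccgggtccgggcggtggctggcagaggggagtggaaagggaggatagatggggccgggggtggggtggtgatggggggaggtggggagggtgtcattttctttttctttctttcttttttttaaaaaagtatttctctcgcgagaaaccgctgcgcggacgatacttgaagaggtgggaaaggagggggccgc
Bgn: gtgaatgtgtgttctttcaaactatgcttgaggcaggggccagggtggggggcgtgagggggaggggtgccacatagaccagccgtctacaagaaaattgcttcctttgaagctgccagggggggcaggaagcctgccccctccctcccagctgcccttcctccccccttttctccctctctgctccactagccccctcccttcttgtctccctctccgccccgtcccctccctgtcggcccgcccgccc
Of the 7 windows searched, 3 held TATAAA, 126 bases before the start in Tnc, 26 in Postn and 126, on the other strand, in Thbs2; 12.4% of 32817 windows of this length hold it. Thbs2 also held CAGAC at 66 and 43 bases before the start and Sparc at 35, a motif in 42.2% of windows. The AP-1 letters, in 6.75% of windows, and the TEAD letters, in 12.6%, were found in none of the 7. The windows of Fbn1, Bgn and Fbln2 held none of the 4 motifs. Nothing in these data measured binding at these positions.

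Which fibroblasts each library held bears on all of these class levels. Clustered again, 220 of the 572 vehicle cells but 5 takinib cells fell in a sub-cluster led by immunoglobulin genes (Igha), with Tnc at 1889 CPM, Postn at 1249 CPM and Fbn2 at 1082 CPM. It scored about alike for macrophage (0.609) and fibroblast markers (0.608) and was left unnamed. Conversely, 139 of the 233 takinib cells but 2 vehicle cells fell in a sub-cluster led by Serpinb2, S100a9 and S100a8, which took the name of neutrophils by its markers and had a median of 14956 UMIs. It held Tnc at 397 CPM, Postn at 127 CPM and Fbn2 at 21.4 CPM, beside Sparc at 6241 CPM and Col1a1 at 5350 CPM. The mesothelial marker Upk3b stood there at 24.4 CPM, and Msln, counted below among ductal tumour genes, at 87.1 CPM. Wt1, also a mesothelial marker, stood at 95.9 CPM. Its vehicle levels were 56.7 CPM in the Igha-led sub-cluster and 131 CPM in that led by Ly6c1 and Dpt. Without the Serpinb2-led sub-cluster, 5 of the 10 genes were at least 2-fold lower in takinib, and not all the same ones. The share over all genes, 8.63% lower, was taken for the whole class only. Fbn2, Tnc, Postn and Thbs2 remained, with log2 ratios of -2.35, -2.19, -2.03 and -1.55. Thbs1 joined them at -1.67, while Bgn, at -0.68, and Fbn1, at -0.18, no longer passed 2-fold.

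Only 2 sub-clusters held at least 20 cells of each library, and many of their values rest on few UMIs. In that led by Ly6c1 and Dpt, with 62 vehicle and 36 takinib cells, Postn had 345 CPM [275, 427] and 184 CPM [131, 250], Fbn2 49.3 and 50.5 CPM, and Fbn1 1026 and 914 CPM. Its Bgn stood at 2595 and 2201 CPM and its Sparc at 10514 and 9611 CPM. The other, led by Hbb-bs and Gdf10, scored highest for erythroid markers (0.668, fibroblast 0.501) and was left unnamed. There, with 98 and 27 cells, Postn had 136 and 263 CPM, Fbn2 224 and 219 CPM, and Fbn1 447 and 526 CPM. The mean of the log2 ratios within these 2 was 0.015 for Postn, 0.32 for Thbs2, 0.032 for Fbn1 and 0.0015 for Fbn2. For Postn that mean joins -0.87 [-1.44, -0.35] in the Ly6c1-led cells (84 and 40 UMIs) with 0.90 [0.16, 1.61] in the Hbb-bs-led cells (31 and 24 UMIs). Thbs2 had under 50 UMIs in every one of these sums and Fbn2 12 and 11 UMIs in the Ly6c1-led cells, so the counts do not settle a direction for Postn, Thbs2 or Fbn2 within sub-clusters. The mean was -1.27 for Tnc, which rested on 48 and 30 UMIs in vehicle and 13 and 5 in takinib. It was farther below 0 than the class ratio for Thbs1 (-1.81 against -0.65), Fn1 (-0.99 against -0.51) and Fbln2 (-0.57 against -0.07). With UMIs summed over both sub-clusters for the minimum of 50, 2 genes, Tnc and Thbs1, were at least 2-fold lower, against 6 over the class. The share over all genes was not taken for this mean. Within a single sub-cluster with at least 50 UMIs, Fn1 (-1.06) and Thbs1 (-2.71, from 78 and 4 UMIs) passed in the Hbb-bs-led cells and Fbln2 (-1.05) in the Ly6c1-led cells. With the cells clustered more finely (Leiden resolution 2), the class ratio was -1.31 for Postn, -0.57 for Bgn and -0.0089 for Fbn1.

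**Figure D4:**
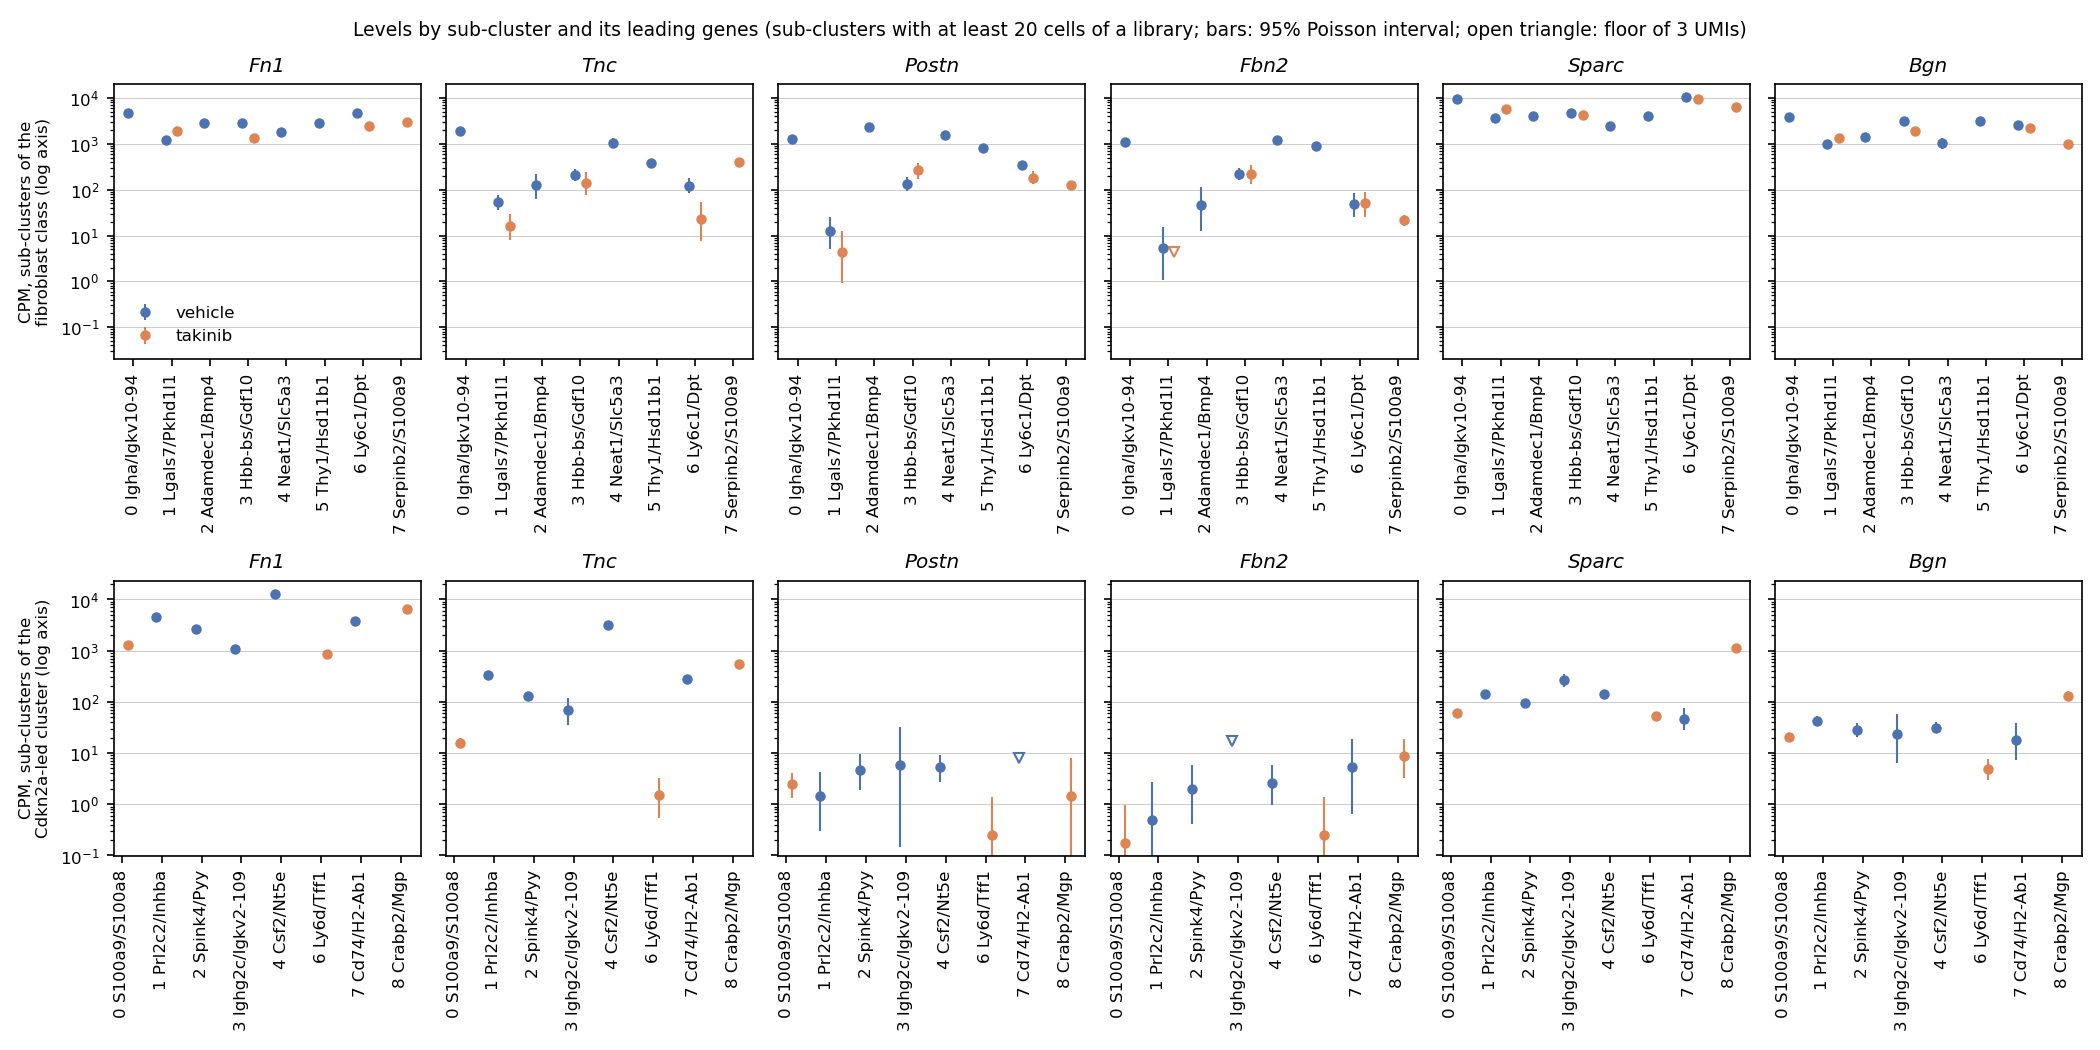
CPM (log axis) of 6 genes in sub-clusters of the fibroblast class (top, where Lgals7/Pkhd1l1 is the mesothelial-like part) and of the Cdkn2a-led cluster (bottom), named by number and leading genes; blue is vehicle, orange takinib, bars are 95% Poisson intervals, and only sub-clusters with at least 20 cells of a library are drawn. Fbn2 in the Ly6c1/Dpt sub-cluster was at 49.3 and 50.5 CPM, while the Igha-led vehicle cells had 1082 CPM and the Serpinb2-led takinib cells 21.4 CPM.

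Signs of other cell types within the fibroblast-like sums were measured beside these values. Mesothelial markers summed to 69.5 CPM in vehicle, with 4 of 6 at 0, and to 194 CPM in takinib with none at 0. Neutrophil markers summed to 107 and 9506 CPM. Some other sets were lower in takinib: macrophage markers summed to 2634 and 1335 CPM, endothelial to 237 and 84.0 CPM and acinar to 176 and 28.0 CPM. The fibroblast markers themselves summed to 40545.5 and 22617.4 CPM. Among 8 ductal tumour genes, 7 had enough counts: 4 were at least 2-fold higher in takinib, led by Msln (0.46 and 74.3 CPM) and Krt7 (21.8 and 66.1 CPM), and 2 lower, Epcam (35.7 and 6.46 CPM) and Cdkn2a (253 and 92.3 CPM). In the 261 vehicle and 114 takinib cells without UMIs of Epcam, Krt8, Krt18, Krt19 or Cdkn2a, Postn had 1019 and 109 CPM, Fbn2 543 and 33.3 CPM, and Tnc 891 and 263 CPM. These 3 remained over 2-fold lower in takinib. Fbn1, at 949 and 489 CPM, no longer passed 2-fold, and Thbs1, at 537 and 556 CPM, no longer differed in the direction seen over the class.

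Splitting the vehicle cells by sex-linked transcripts gave a comparison closer in sex to takinib. Of the 572 vehicle fibroblast-like cells, 119 were taken as female (Xist and no Y-linked UMI) and 180 as male (Y-linked UMI and no Xist). The others were not assigned. Over all kept vehicle cells, 5228 had neither kind of UMI and 168 had both. Since 1 UMI sufficed, the assignment depends on depth. Postn had 1253 CPM in female and 809 CPM in male vehicle cells, against 143 CPM in takinib, and Fbn2 had 743 and 849 CPM, against 40.2 CPM. Fn1 had 3017 CPM in female cells, close to the 2861 CPM of takinib. The direction turned for Sparc and Fbln2 with female cells alone: Sparc had 5161 CPM and Fbln2 842 CPM there, both below the takinib levels of 6298 and 1053 CPM. Tnc, at 670 CPM in female and 1394 CPM in male cells, was 0.82 lower in takinib than in female cells on the log2 scale, under 2-fold. In the Cdkn2a-led cluster the female vehicle cells were the higher ones, with Tnc at 2252 CPM in female and 1062 CPM in male cells and Fn1 at 10639 and 6227 CPM. Both stood above the takinib levels. Directions turned in that cluster for Sparc (146 CPM in female vehicle and 138 CPM in takinib cells), Fbn1 (22.0 and 13.9 CPM) and Thbs2 (11.6 and 5.78 CPM). The female sums of Fbn1 and Thbs2 held 19 and 10 UMIs. Over epithelial-like cells, Thbs1 (-1.27), Fbln2 (-1.01) and Bgn (-1.05) passed 2-fold downward with female vehicle cells.

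**Figure D5:**
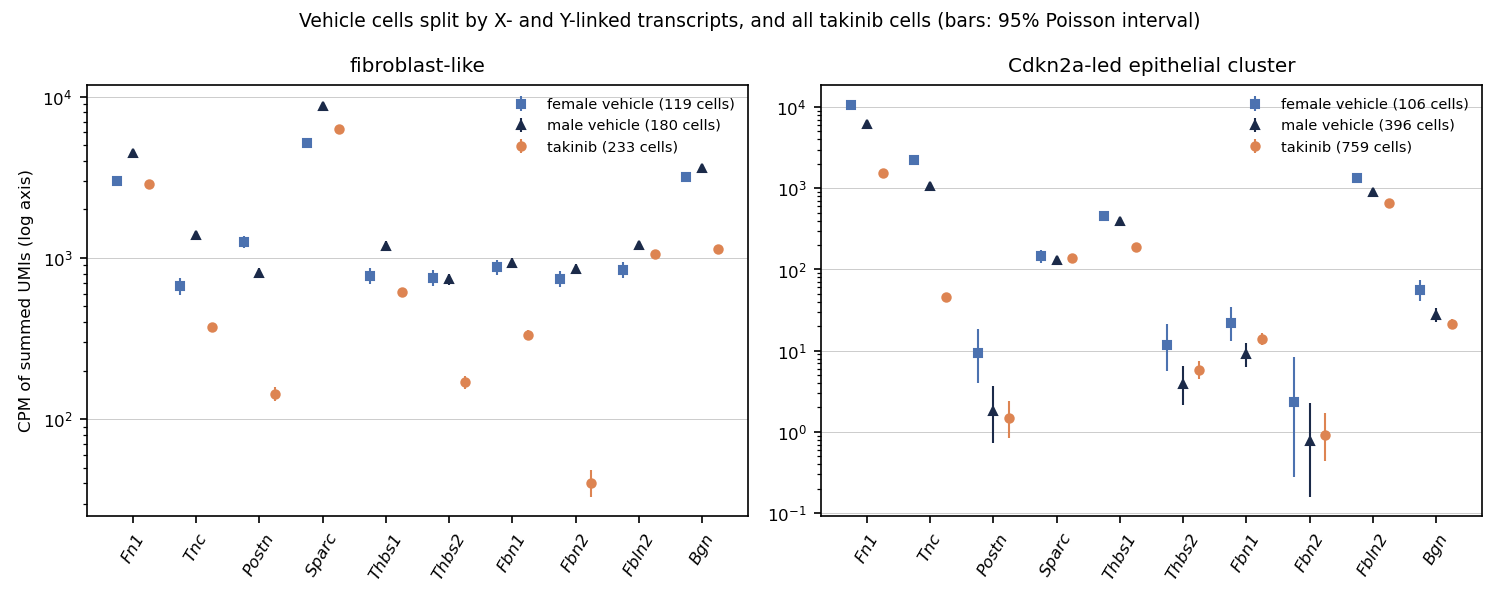
CPM (log axis) of the 10 genes in vehicle cells of female origin (squares), vehicle cells of male origin (triangles) and all takinib cells (circles), in fibroblast-like cells (left) and the Cdkn2a-led cluster (right); bars are 95% Poisson intervals. Postn in fibroblast-like cells was at 1253, 809 and 143 CPM, and Sparc at 5161, 8785 and 6298 CPM.

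Outside these 2 compartments, Thbs1 summed over macrophage-like and over neutrophil-like cells was higher in takinib, but different clusters filled these classes in the 2 libraries. Macrophage-like cells (5031 in vehicle, 7324 in takinib) had 543 CPM [533, 553] of Thbs1 in vehicle and 844 CPM [836, 852] in takinib, 1.55-fold higher. Macrophage-like Fn1 had 3604 and 2862 CPM, a 1.26-fold difference. The largest macrophage-like cluster was led by H2-Ab1 in vehicle (2624 cells) and by U90926 and Saa3 in takinib (2352 cells). Only 4 of the 6 clusters held at least 20 cells of each library, with 5024 vehicle and 4056 takinib cells. Within them the log2 ratio of Thbs1 was -0.37 in the Gpnmb-led, -0.09 in the Ccl8-led, 0.33 in the H2-Ab1-led and 0.80 in the Vcan-led cluster, so it had no common direction. Fn1 was lower in takinib in 3 of them (-0.89 to -0.42) and higher in the Vcan-led cluster (0.47).

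Neutrophil-like cells had 179 CPM [140, 226] of Thbs1 from 71 UMIs in vehicle and 448 CPM [441, 456] in takinib, 2.51-fold higher, where 3.53% of 10896 genes were at least 2-fold higher. Fn1 (524 and 151 CPM), Tnc (42.8 and 4.92 CPM) and Bgn (30.2 and 6.15 CPM) were at least 2-fold lower, where 10% of these genes were, with 17 and 12 vehicle UMIs for Tnc and Bgn. However, 260 of the 282 vehicle neutrophil-like cells and only 205 of the 12535 takinib ones lay in the cluster led by Ctsk, Mmp9 and Siglecf, the 1 cluster of the class with at least 20 cells of each library. Within it Thbs1 stood at 151 CPM for vehicle and 113 CPM for takinib, a log2 ratio of -0.40 [-0.95, 0.15] on 51 and 42 UMIs, so its class difference was not seen there. Fn1 had 534 and 228 CPM, a log2 ratio of -1.19 [-1.55, -0.83]. Fn1 and Tnc were also lower in takinib than in vehicle T-like cells, whose levels are given below. Whether free RNA accounts for the neutrophil-like differences was not tested.

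Macrophage-like Sparc, at 39.3 and 9.88 CPM, was the 1 gene at least 2-fold lower there, where 1.18% of 12045 genes were. It stood below the T-like level of 90.4 CPM in vehicle.

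Vascular and mesothelial cells gave further values for Sparc and Bgn. Endothelial-like cells (671 and 88) had 4623 and 3042 CPM of Sparc and 300.3 and 85.1 CPM of Bgn. Mesothelial-like cells, 91 and 86 in number, had 1209 and 1915 CPM of Fn1, 3592 and 5636 CPM of Sparc, and 1006 and 1367 CPM of Bgn. These 3 genes stood higher in takinib mesothelial-like cells, under 2-fold each, where 2.62% of 2175 genes were at least 2-fold higher. Thbs1 went the other way there, with 277 CPM in vehicle and 149 CPM in takinib, a log2 ratio of -0.85 [-1.19, -0.51]. Compared with vehicle perivascular-like cells, 7 of the 10 genes were at least 2-fold higher in vehicle fibroblast-like cells, where 8.6% of 7000 genes were. Fbn2 had 800 against 33.8 CPM and Fbln2 1103 against 47.1 CPM, while Postn was level.

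Free RNA limits how low a level can be read. In 376273 vehicle barcodes with under 100 UMIs, Fn1 had 2562 CPM, Sparc 545 CPM, Thbs1 365 CPM, Tnc 198 CPM and Postn 79.8 CPM, whereas the takinib matrix holds no such barcodes. Vehicle T-like cells had 376 CPM of Fn1 and 25.4 CPM of Tnc, and takinib T-like cells 144 and 3.27 CPM. The Cdkn2a-led and fibroblast-like levels of Fn1 and Tnc lay above those of T-like cells of the same library in both libraries.

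Other genes of the matrix were compared from lists. Over all genes, 8.63% were at least 2-fold lower and 6.92% higher in takinib fibroblast-like cells, and 2.19% and 3.19% in the Cdkn2a-led cluster. Of 36 other matrix glycoproteins and proteoglycans, 33 had enough counts in fibroblast-like cells, of which 22 were at least 2-fold lower in takinib and none higher, with a median log2 ratio of -1.37. Lowest were Spon1 (806 and 91.6 CPM), an F-spondin, and Prelp (390 and 40.6 CPM), a leucine-rich proteoglycan of basement membranes. Highest were Tgfbi (56.0 and 87.2 CPM) and Ccn1 (186 and 216 CPM). In the Cdkn2a-led cluster 18 had enough counts, 7 lower and 1 higher.

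Receptors of these proteins showed no common direction in the fibroblast-like class. Of 18 receptor genes, 12 had enough counts in the fibroblast-like class: 3 passed 2-fold upward in takinib and 2 downward, and the median log2 ratio was 0.05. The hyaluronan receptor Cd44 had 106 and 269 CPM and the syndecan Sdc4 89.4 and 590 CPM, while the integrin subunit Itgb5 had 552 and 66.1 CPM and the scavenger receptor Lrp1 1167 and 539 CPM. In the Cdkn2a-led cluster 14 had enough counts, 4 lower and 1 higher, with a median of -0.59, beside -0.47 for the 8 members with enough counts there. Of 6 TGF-beta ligand and receptor genes, 3 were lower and none higher in the fibroblast-like class, and the median was -1.07. Tgfb3 had 189 and 26.9 CPM and Tgfbr2 522 and 146 CPM, whereas Tgfbr3 had 72.3 and 144 CPM and Tgfb2 73.2 and 41.3 CPM. In the Cdkn2a-led cluster 5 had enough counts and none passed 2-fold.

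Genes with the most similar profile were taken over 18 class-by-library sums of at least 100 cells, among 11811 genes with at least 500 UMIs. Tnc was closest to Has2, a hyaluronan synthase (Pearson r = 0.96), Nradd (0.94) and Col7a1 (0.94). Fn1 was closest to Ttyh2 (0.93), Hsbp1 (0.93) and Rassf8 (0.90). Postn was closest to P3h3, a collagen prolyl hydroxylase family member (0.98), Col5a2 (0.97) and Nkd1 (0.97). Sparc was closest to Ppic, Hspb8 and Tgfb1i1 (0.98 each). These values describe profiles that share libraries and depth.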

How the data were processed

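Single-cell RNA was measured in 1 vehicle and 1 takinib library of KPPC mouse pancreatic tumour, grouped by the labels. The files deposited by the authors hold unnormalised UMI counts for each gene in each barcode, made with Cell Ranger 4 (vehicle) and 6.1.1 (takinib) per the file headers. The submitters' processing notes list mm10, Cell Ranger 2.1.1, STAR 2.0.4b and featureCounts 1.45. No takinib barcode has under 500 UMIs, whereas the vehicle file lists 704261 barcodes.

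Cells were required to have 1000 UMIs, 500 genes and no more than 20% mitochondrial UMIs. Scrublet removed 314 vehicle doublets. In takinib it marked 1 barcode of 26790, so the top 6% by doublet score (1607) were taken out instead. Kept cells held 42000538 UMIs in vehicle and 119726977 in takinib. The 2 libraries were pooled and clustered in scanpy 1.11.5 (2000 variable genes without the 10 members, 30 principal components, 15 neighbours, Leiden resolution 1). Clusters were named from marker lists with at least 3 detected markers and no rival class with 3 detected markers scoring 0.75 of the best. Mesothelial was not counted as a rival of fibroblast (it scored 0.667 against 0.884 there), and mesothelial-named cells were split from that class by sub-clustering. A difference from the study may come from these rebuilt names.

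UMIs were summed per class and library and scaled to CPM. Ratios are log2 of CPM plus 10, which understates changes of low genes. A gene was called at a 2-fold ratio with at least 50 UMIs in either group. CPM carry exact Poisson intervals and shares Clopper-Pearson intervals; those of log2 ratios come from drawing the counts again 1000 times from Poisson distributions. All cover counting error only. For a count of 0 the floor is 3 counts. Scripts were tested on simulated data. All 10 members are named, and of every other list the 2 highest and 2 lowest genes in fibroblast-like cells. The members, lists and naming rule were chosen with earlier results of these data known. Alternatives changed the filters, clustering, naming, scaling, added CPM and vehicle sex; those that leave out cells or sub-clusters were chosen after seeing the data.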

Additional observations from a re-analysis of the deposited data

How the results depend on the processing

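Of 10 genes, 6 were at least 2-fold lower in takinib fibroblast-like cells, and the count was 5 or 6 under all alternatives but one: as the mean within the 2 sub-clusters holding at least 20 cells of each library, a choice made after seeing the data, it was 2. There the log2 ratios were 0.015 for Postn, 0.32 for Thbs2, 0.032 for Fbn1 and 0.0015 for Fbn2, on few UMIs and, for Postn and Thbs2, with opposite directions in the 2 sub-clusters. Different sub-clusters filled the class in each library. In epithelial-like cells the count of 2 became 6 with each library clustered on its own and 5 with female vehicle cells. The cause was not tested, and no share over all genes was taken under the alternatives. No gene was at least 2-fold higher in epithelial-like cells under any alternative run. With each library clustered alone, takinib had no fibroblast-named cluster, and within the sub-clusters of the Cdkn2a-led cluster none was shared, so these gave no value. No paired analysis was possible because each group had 1 library. Treatment cannot be told apart from mouse, sex, depth, barcode filtering or software version. Genes with few UMIs in a sum, such as Fbn2 in the Ly6c1-led cells, have wide intervals.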
